A study of Mus musculus with 9 samples.

Results

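The chemokine system was followed through 36 genes, 25 chemokine ligands and 11 chemokine receptors, among the 45777 genes measured in CD11b+ cells of the injured mouse liver. The genes were given as a list of mouse symbols and matched to the gene IDs of the deposited tables, so no measured value chose them, although they were listed with earlier results of these data known. Ligands and receptors were treated separately. CD11b is an integrin chain on monocytes, macrophages and neutrophils. All mice received acetaminophen (APAP) intraperitoneally, which at high dose kills hepatocytes and is a standard model of acute liver failure, and livers were taken 48 hours later. The 9 samples formed 3 groups of 3. The PBS group received APAP and PBS. The HEK-EV group received APAP and, 8 hours after it, intravenous extracellular vesicles (EVs) called SIRP-EV in the labels and made by HEK cells, an established line from human embryonic kidney. The MSC-EV group received APAP and, at the same time, SIRP-EV derived from MSC, the usual abbreviation of mesenchymal stem or stromal cells. The labels do not spell out SIRP, and strain, age and sex of the mice are not stated in them. There was no group without APAP and none with vesicles without SIRP, so the values speak only of differences among injured livers. Nothing states that the 3 samples of a group came from separate animals. Each p-value of the main fit sets a group difference against the spread within groups, estimated from all 9 samples. Whether that is a spread between animals is unknown.

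Chemokines are small secreted proteins that bind to the matrix and to endothelium and guide leukocytes that carry the matching receptor. CC and CXC chemokines are named for the spacing of their first cysteines, and their receptors couple to inhibitory G proteins that start cell movement. In the liver after APAP, Ccl2 acting on Ccr2 is known for drawing in monocytes, and Cxcl1 and Cxcl2 acting on Cxcr2 for drawing in neutrophils. Macrophages, monocytes and neutrophils also make many chemokines themselves.

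The cells carried the defining transcripts of CD11b+ leukocytes. Itgam, which encodes CD11b, lay between 196 and 434 TPM, the share of transcripts after correction for their length, in the 9 samples, Ptprc, which encodes CD45, between 418 and 669, and Csf1r, the macrophage growth factor receptor, between 945 and 1156. MSC-EV samples had less of both Itgam and Ptprc than HEK-EV samples (adjusted p = 0.0257 and 0.0207 by limma), and less Ptprc than PBS samples (adjusted p = 0.0271). Itgam was also below PBS in every MSC-EV sample (14.9% of all genes tested were), but did not pass by limma (-0.53 on the log2 scale, SE 0.134, adjusted p = 0.0553). In bulk RNA, fewer cells of a type and less RNA per cell cannot be told apart. The tables give no read counts, so the depth of each library in reads is unknown and no interval for counting error was computed. Its nearest measure, the ratio of coverage to FPKM, was 5.28 to 6.32 in the PBS samples, 6.25 to 6.47 in HEK-EV and 6.58 to 6.84 in MSC-EV. Transcripts of pancreatic acinar cells were present in HEK-EV replicates 1 and 2 and MSC-EV replicates 1 and 3, where the summed level of 21 acinar genes was 43.8 to 3624 TPM, against 13.3 to 15.4 TPM in the other 5 samples. The Ly6C-high monocyte markers summed to 6101 to 12705 TPM in PBS, 7795 to 10248 in HEK-EV and 3745 to 4587 in MSC-EV.

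Many of the 36 genes have other members on the same chromosome, in the coordinates of the deposited tables, while Cxcl12, Cxcl14 and Cxcr3 are each the only one on theirs. Chromosome 11 holds 10 of the ligands, among them Ccl3 (gene ID 20302, 83647843 to 83649378, minus strand) and Ccl4 (gene ID 20303, 83648624 to 83664683, plus strand), whose spans overlap on opposite strands. Chromosome 5 holds another 10, among them Pf4 (gene ID 56744, 90772435 to 90773383, plus strand) next to Ppbp (90768518 to 90770063), and Cxcl9 (gene ID 17329, 92321331 to 92328079) next to Cxcl10 (gene ID 15945, 92346638 to 92348889). Chromosome 8 holds Ccl22 (gene ID 20299, 94745684 to 94751388), Cx3cl1 (94772180 to 94782427) and Ccl17 (gene ID 20295, 94809380 to 94812038). Of the 11 receptors, 6 lie on chromosome 9. The use of strand in assigning reads is not given in the sources used here, and if it was not used, reads of Ccl3 and Ccl4 in the shared stretch cannot be told apart.

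The RefSeq promoter table (assembly GRCm38.p6) held 28 of the 36 genes. The 250 bases before the start are shown for 6 ligands that the results below turn on: Ccl3 and Pf4, which passed the test, Ccl17 and Ccl22, the pair of Ccr4 ligands, which did not pass, and Cxcl9 and Cxcl10, an interferon-inducible pair of which Cxcl9 was far higher in 1 library. The RefSeq start of Ccl17 lies inside the span that the deposited tables give for the gene. Each is written 5′ to 3′ on the strand of its gene, and capitals mark the motif matches described after them.
Ccl3, chr11:83649379-83649628, minus strand, GRCm38.p6: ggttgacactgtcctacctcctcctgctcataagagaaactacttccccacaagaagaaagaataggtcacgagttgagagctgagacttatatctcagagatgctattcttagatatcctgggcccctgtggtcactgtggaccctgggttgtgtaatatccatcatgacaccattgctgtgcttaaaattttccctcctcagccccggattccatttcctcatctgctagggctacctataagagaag
Pf4, chr5:90772185-90772434, plus strand, GRCm38.p6: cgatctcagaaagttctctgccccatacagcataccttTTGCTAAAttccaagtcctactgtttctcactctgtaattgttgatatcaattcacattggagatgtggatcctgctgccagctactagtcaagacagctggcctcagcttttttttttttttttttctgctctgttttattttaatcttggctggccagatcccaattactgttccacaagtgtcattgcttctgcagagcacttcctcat
Cxcl9, chr5:92328080-92328329, minus strand, GRCm38.p6: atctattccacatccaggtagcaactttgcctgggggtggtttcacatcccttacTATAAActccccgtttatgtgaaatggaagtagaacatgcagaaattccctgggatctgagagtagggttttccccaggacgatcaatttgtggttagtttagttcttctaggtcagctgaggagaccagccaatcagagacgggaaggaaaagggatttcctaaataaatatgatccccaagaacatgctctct
Cxcl10, chr5:92348890-92349139, minus strand, GRCm38.p6: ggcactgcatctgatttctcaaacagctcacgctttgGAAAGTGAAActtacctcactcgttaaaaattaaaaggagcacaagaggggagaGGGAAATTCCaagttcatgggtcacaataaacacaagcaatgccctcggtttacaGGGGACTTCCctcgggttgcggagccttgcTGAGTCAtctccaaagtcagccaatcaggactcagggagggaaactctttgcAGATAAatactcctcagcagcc
Ccl17, chr8:94810203-94810452, plus strand, GRCm38.p6: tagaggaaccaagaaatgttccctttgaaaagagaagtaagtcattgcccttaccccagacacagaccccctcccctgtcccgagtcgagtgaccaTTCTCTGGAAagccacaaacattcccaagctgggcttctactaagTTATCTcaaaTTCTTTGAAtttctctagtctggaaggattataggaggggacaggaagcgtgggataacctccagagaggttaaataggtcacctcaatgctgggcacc
Ccl22, chr8:94745434-94745683, plus strand, GRCm38.p6: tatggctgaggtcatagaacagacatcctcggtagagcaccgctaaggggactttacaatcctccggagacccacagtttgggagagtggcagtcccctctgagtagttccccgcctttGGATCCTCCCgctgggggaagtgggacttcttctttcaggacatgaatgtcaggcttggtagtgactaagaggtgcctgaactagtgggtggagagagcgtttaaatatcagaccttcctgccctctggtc

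The motifs were searched as exact letters on both strands in the 300-base window of the table (250 bases before to 50 after the start). They were a TATA box (TATAAA, in 13.6% of all promoters of that table), a kB motif (GGG and TCC with any 4 bases between them, 19.2%), an interferon-stimulated response element core (GAAA and GAAA with any 2 bases between them, 3.4%), a gamma-activated site (TTC and GAA with 3 bases between them, 8.3%) and a STAT6 motif (TTC and GAA with 4 bases between them, 7.0%). The AP-1 motif (TGA and TCA with 1 base between them) was in 7.8% of promoters and the GATA motif (AGATAA) in 11.2%. The C/EBP motif was searched as TTGC followed after any 2 bases by AA and was in 10.8%. The cyclic AMP response element, searched as TGACGTCA, was in 1.8% of all promoters and in 0 of the 28. No matches of different motifs overlapped in the stretches shown, and the positions that follow cover only those 250 bases, not matches in the 50 bases after the start. Cxcl10, an attractant of activated T cells through Cxcr3, held the most, with an interferon-stimulated response element core 213 to 204 bases before the start, kB matches at 159 to 150 and 104 to 95, AP-1 at 74 to 68 and GATA at 22 to 17. Cxcl9, which acts on the same receptor, held a TATA box 195 to 190 bases before the start, and Pf4 a C/EBP match at 212 to 205. Ccl17 held a STAT6 match at 154 to 145, a GATA match at 109 to 104 and a gamma-activated site at 99 to 91, and Ccl22 a kB match at 131 to 122. The stretch of Ccl3 holds none of these letter strings. Over all 18 ligands in the table, 6 held a kB motif and 8 a TATA box. A match is a description of letters and was not tested for binding.

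Levels of different genes can be compared on the TPM scale because it is per length. Ccl3, which attracts monocytes and neutrophils, had the highest mean of the ligands over the 9 samples at 828 TPM, followed by Ccl6, a rodent Ccr1 ligand, at 808 and Cxcl2, a Cxcr2 ligand, at 780. Ccl4 followed at 408, Ccl2 at 244, Pf4 at 208 and Ccl9 at 207. The ranges of the first 3 overlapped (691 to 1132 for Ccl3, 715 to 1023 for Ccl6 and 579 to 1043 for Cxcl2), and that of Ccl4 (336 to 556) lay wholly below them. The 25 ligands together took 0.342% to 0.495% of all TPM, highest in PBS replicate 3 and lowest in MSC-EV replicate 2, and the groups overlapped in this sum. At the other end, Ccl8, Cxcl5 and Cx3cl1 among the ligands and Ccr9, Cxcr6 and Ackr3 among the receptors did not reach 1 TPM in 3 samples and had no test, leaving 22 ligands and 8 receptors.

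**Figure D1:**
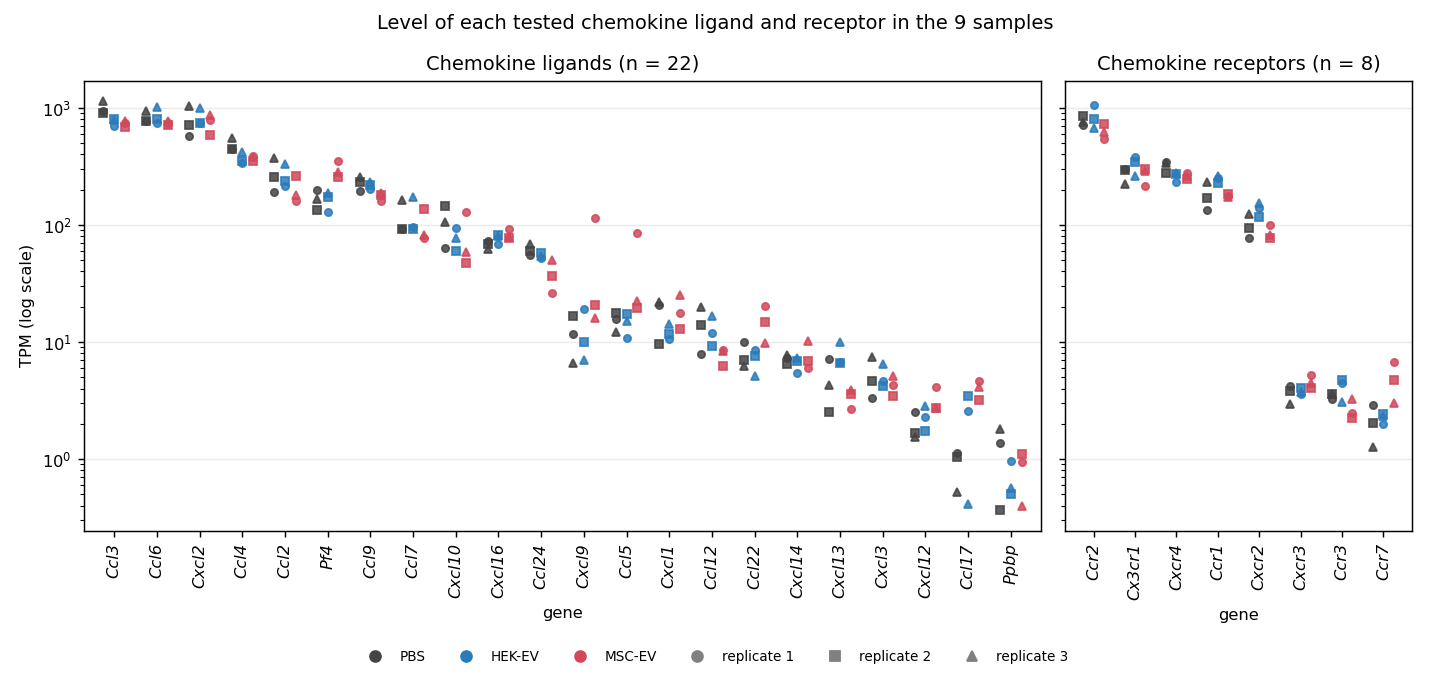
TPM on a log scale (vertical axis) of the 22 ligands and 8 receptors with a test, ordered by mean, with 1 point per sample, colour for the group and shape for the replicate. Ccl3, Ccl6 and Cxcl2 lie highest among ligands and Ccr2 among receptors, and the red circle of MSC-EV replicate 1 lies far above the other samples for Cxcl9 and Ccl5.

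Among receptors, Ccr2, the monocyte receptor for Ccl2, led with a mean of 748 TPM, followed by Cx3cr1, the fractalkine receptor of monocytes and macrophages, at 289 and Cxcr4, the receptor for Cxcl12, at 280. Ccr1 averaged 200 TPM and Cxcr2 107. The gap below them was wide, since Cxcr3, Ccr3 and Ccr7 averaged 4.01, 3.41 and 3.05 TPM. The 11 receptors summed to 1580 to 1685 TPM in the PBS samples, 1630 to 2073 in HEK-EV and 1323 to 1546 in MSC-EV. The MSC-EV sums lay below all others, and Ccr2, whose own values overlapped between groups, is the largest part of them. Of the 8 receptors with a test, 5 were lower and 3 higher in MSC-EV than in PBS, and 0 passed. The sum is therefore not a result about the receptors as a group. The plot of levels shows the ordering of both roles.

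Against PBS, 1 ligand rose and 1 fell in the MSC-EV group: Pf4 was about 1.77 times as high and Ccl3 fell to 0.739 times, on the log2(TPM + 1) scale, which understates the change of low genes. That is 2 of 22 ligands and 0 of 8 receptors past an adjusted p of 0.05 in limma, where 5.11% of all 13820 genes tested passed. A count of 2 among 22 is close to that share and is not a result about the ligands as a group. At an unadjusted p under 0.05 there were 12 ligands and 2 receptors (23% of all genes), of which 7 ligands and 1 receptor were higher (9.92% of all genes) and 5 ligands and 1 receptor lower (13.1%). The groups were wholly apart, with no value of one inside the range of the other, for 9 ligands and 1 receptor (26% of all genes): Pf4, Ccl5, Ccl17, Cxcl12, Cxcl16 and the receptor Ccr7 were higher (11.2% of all genes) and Ccl3, Ccl4, Ccl9 and Ccl24 lower (14.9%). The differences pointed both ways, with 9 ligands higher and 13 lower, a median log2 difference of -0.16 for ligands and -0.10 for receptors, and 0.01 for all genes. The number of ligands called fell to 0 without PBS replicate 2 or 3, HEK-EV replicate 2 or MSC-EV replicate 1 or 2, was 1 without MSC-EV replicate 3, and was 6 without PBS replicate 1 and 3 without HEK-EV replicate 3. In the fits with 0 ligands called, in the same order, 5, 7, 297, 25 and 59 of all 13820 genes passed, against 706 with all samples. Without MSC-EV replicate 3, PBS replicate 1 and HEK-EV replicate 3, the genes passing were 469, 1861 and 560. By scaling, the ligand count was 1 higher and 1 lower on TPM and with median-of-ratios scaling, 2 higher and 0 lower on FPKM, and 1 higher and 0 lower with quantile normalization. The receptor count was 0 to 3 over the alternatives, and 1 without PBS replicate 1 or MSC-EV replicate 3.

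**Figure D2:**
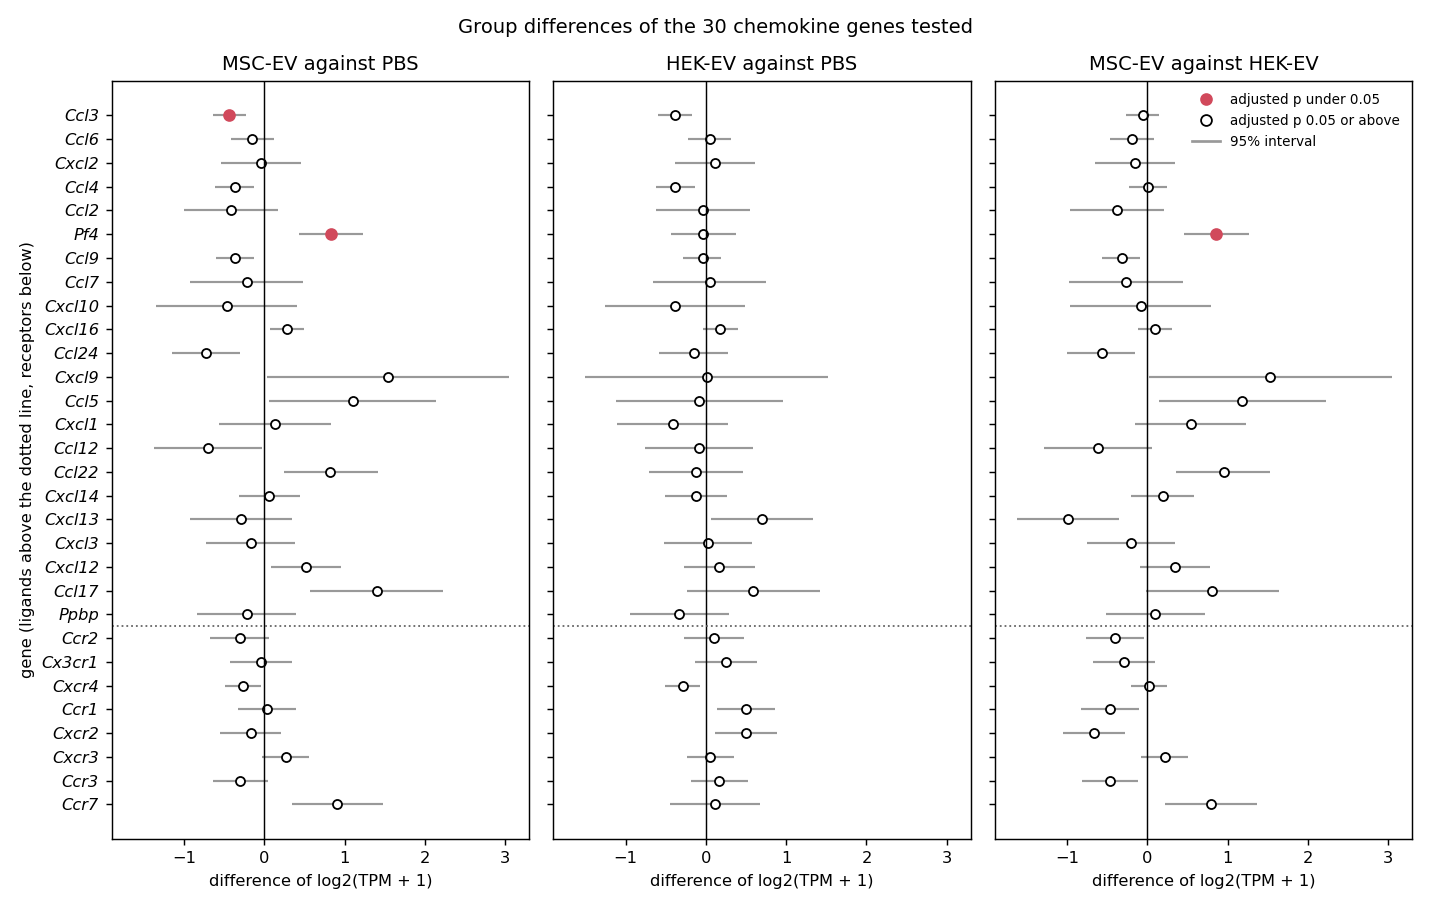
Difference of log2(TPM + 1) between group means (horizontal axis) with its 95% interval from limma, for the 22 ligands above the dotted line and the 8 receptors below it, in the 3 comparisons. Filled points have an adjusted p under 0.05: Pf4 and Ccl3 for MSC-EV against PBS, Pf4 for MSC-EV against HEK-EV and none for HEK-EV against PBS.

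Pf4, also called Cxcl4, is a chemokine of platelet granules that macrophages make as well. It was at 197, 135 and 167 TPM in the PBS samples, 129, 173 and 187 in HEK-EV and 350, 254 and 283 in MSC-EV. Every MSC-EV sample lay above every other sample, while the PBS and HEK-EV samples overlapped. The mean rose from 167 ± 31.1 (SD, n = 3) in PBS to 295 ± 49.3 in MSC-EV, a log2 difference of 0.83 (SE 0.177, adjusted p = 0.0348 by limma). Against HEK-EV, at 163 ± 30.2, the difference was 0.86 (SE 0.177, adjusted p = 0.0292), and HEK-EV against PBS gave -0.03 (SE 0.177, adjusted p = 0.999).

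The direction of Pf4 against PBS was the same in all 20 alternative fits (0.68 to 1.12, adjusted p 0.000963 to 0.141), of which 10 passed. The adjusted p was above the threshold when PBS replicate 2 (0.141) or 3 (0.106), HEK-EV replicate 2 (0.0571) or MSC-EV replicate 1 (0.134), 2 (0.0723) or 3 (0.0631) was left out, with the acinar split as a term (0.141), with no filter on low values (0.0844) and with only the 6 samples compared (0.0571). The replicate number as a block also ended the call, among the 10 that did not pass. Against HEK-EV 12 of 20 passed (0.70 to 0.98, adjusted p 0.00788 to 0.111), and the call was lost without any 1 sample of either group: HEK-EV replicate 1, 2 or 3 (0.0783, 0.0642 and 0.0597) or MSC-EV replicate 1, 2 or 3 (0.111, 0.0694 and 0.0532). It was also lost with no filter (0.0732) and with the replicate block, among the 8 that did not pass. Among samples with a median of 0 TPM over the acinar genes, MSC-EV replicate 2 was at 254 TPM, HEK-EV replicate 3 at 187, and no PBS sample was above 197. MSC-EV replicate 2 is the only sample of its group among them, and the part of acinar transcripts in the Pf4 difference cannot be read from it.

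Of the 11 platelet and megakaryocyte genes listed, 2 reached the filter, Itgb3 and Treml1, and the sum over all 11 was 7.25 to 7.5 TPM in PBS, 6.60 to 7.51 in HEK-EV and 4.45 to 5.21 in MSC-EV. Itgb3, an integrin chain of platelets and other cells, was lower in MSC-EV (2.07 ± 0.27 TPM) than in PBS (3.61 ± 0.183; -0.59, SE 0.108, adjusted p = 0.0251 by limma), and Treml1 averaged 1.61 ± 0.0715 and 1.70 ± 0.213 TPM. Of the genes under the filter, Itga2b, Tubb1, Gp1bb and Nrgn were above 0 in every sample, and Gp9 was listed at 0 in every sample but PBS replicate 3. Ppbp, the other platelet chemokine and the neighbour of Pf4 on chromosome 5, averaged 1.18 ± 0.74 TPM in PBS, 0.676 ± 0.251 in HEK-EV and 0.814 ± 0.368 in MSC-EV (MSC-EV against PBS -0.22, SE 0.274, adjusted p = 0.692). Kupffer cell markers, 9 of 9 past the filter, summed to 3194 to 3892 TPM in PBS, 2306 to 4452 in HEK-EV and 1900 to 3167 in MSC-EV, and the part of platelets and of Kupffer cells in the Pf4 difference was not tested.

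**Figure D3:**
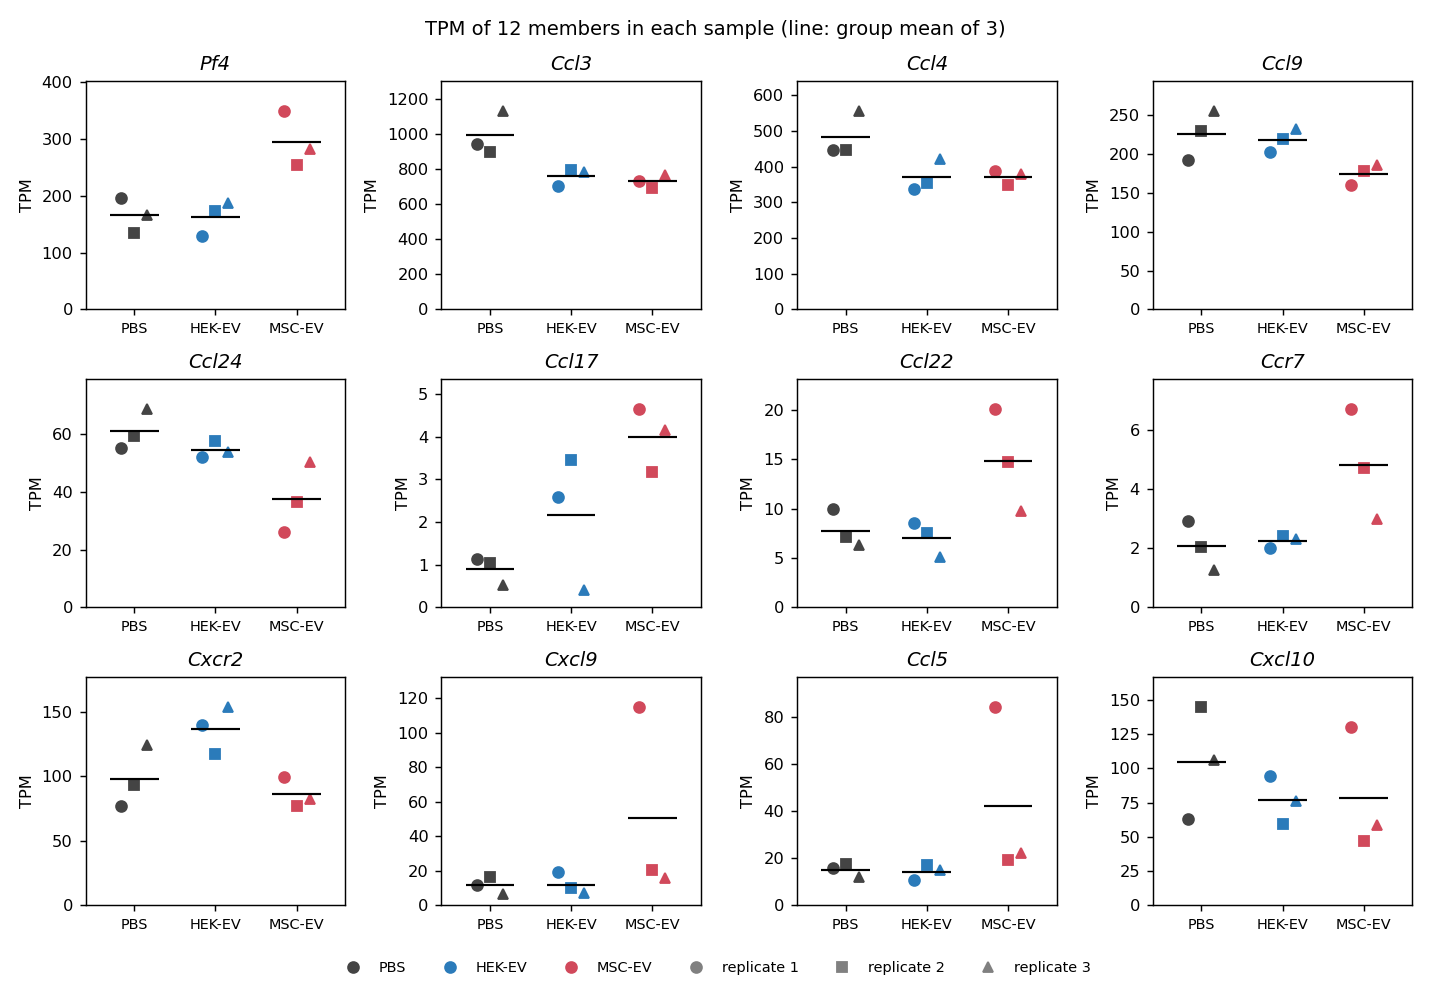
TPM (vertical axis, from 0) of 12 chemokine genes in each of the 9 samples, with 1 point per sample, its shape giving the replicate, and a line at the mean of each group of 3. Pf4 in the MSC-EV group lies above all other samples, Ccl3 and Ccl4 in the PBS group lie above all others, and Cxcl9 and Ccl5 have 1 high sample, MSC-EV replicate 1.

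Ccl3, or MIP-1 alpha, was at 945, 900 and 1132 TPM in the PBS samples, 703, 796 and 784 in HEK-EV and 734, 691 and 766 in MSC-EV. Both vesicle groups lay wholly below PBS, and they overlapped each other. Against PBS (992 ± 123 TPM) Ccl3 fell in MSC-EV (730 ± 37.7) by 0.44 on the log2 scale (SE 0.0923, adjusted p = 0.0339 by limma). The HEK-EV group, at 761 ± 50.6, gave a difference of -0.38 (SE 0.0923) that did not pass (adjusted p = 0.999 by limma), and MSC-EV against HEK-EV gave -0.06 (SE 0.0923, adjusted p = 0.76). Both comparisons with PBS use the same 3 PBS samples.

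The direction of Ccl3 against PBS was the same in all 20 alternative fits (-0.56 to -0.34, adjusted p 0.00797 to 0.134), of which 9 passed. The call was lost without PBS replicate 2 (adjusted p = 0.0965) or 3 (0.0956), HEK-EV replicate 2 (0.0563) and MSC-EV replicate 1 (0.126), 2 (0.112) or 3 (0.051), on FPKM (0.0826), with quantile normalization (0.0515), with the acinar split as a term (0.134), with no filter on low values (0.0747) and with only the 6 samples compared (0.0659). Among samples without acinar transcripts, MSC-EV replicate 2 was at 691 TPM and no PBS sample was below 900. 

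Ccl4, or MIP-1 beta, is a close relative of Ccl3 and overlaps it in the genome. Its samples were at 447, 445 and 556 TPM in PBS, 336, 354 and 420 in HEK-EV and 387, 349 and 379 in MSC-EV. The pattern was that of Ccl3, with all 3 PBS samples above the other 6. The differences from PBS did not pass: -0.37 in MSC-EV (SE 0.107, adjusted p = 0.0777) and -0.38 in HEK-EV (SE 0.107, adjusted p = 0.999).

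Ccl9, another ligand of Ccr1, was at 193, 230 and 256 TPM in PBS, 203, 220 and 233 in HEK-EV and 160, 179 and 186 in MSC-EV. Here the MSC-EV samples were the lowest and PBS and HEK-EV overlapped. The differences were -0.36 against PBS (SE 0.104, adjusted p = 0.0756) and -0.32 against HEK-EV (SE 0.104, adjusted p = 0.0987). Ccl6, the third abundant ligand of this group, averaged 825 ± 93.5, 857 ± 146 and 743 ± 31.8 TPM in PBS, HEK-EV and MSC-EV, and the groups overlapped.

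Ccl24, or eotaxin-2, attracts eosinophils through Ccr3 and is made by macrophages. It was at 55.1, 59.2 and 68.7 TPM in PBS, 52.1, 57.7 and 53.8 in HEK-EV and 26.2, 36.4 and 50.2 in MSC-EV. All MSC-EV samples were below all others, with the widest spread in that group. The differences did not pass, at -0.73 against PBS (SE 0.19, adjusted p = 0.059, passing in 4 of 20 alternatives) and -0.57 against HEK-EV (SE 0.19, adjusted p = 0.107). Of the eosinophil markers, Siglecf was at 7.55, 6.98 and 10.4 TPM in PBS, 11.3, 8.9 and 13.6 in HEK-EV and 13.3, 11.3 and 9.44 in MSC-EV (0.41 against PBS, SE 0.184, adjusted p = 0.218), and Epx, Prg2 and Prg3 were listed at 0 in every sample. The part of eosinophils was not tested. Ccr3 averaged 3.47 ± 0.214 TPM in PBS, 4.08 ± 0.871 in HEK-EV and 2.67 ± 0.524 in MSC-EV.

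The ligands of Ccr4, Ccl17 and Ccl22, are products of dendritic cells and of alternatively activated macrophages that attract regulatory and helper T cells. Ccl17 was at 1.13, 1.04 and 0.525 TPM in PBS, 2.58, 3.46 and 0.414 in HEK-EV and 4.65, 3.18 and 4.16 in MSC-EV. MSC-EV lay above PBS without overlap, and HEK-EV was spread over both. The difference of MSC-EV from PBS was 1.40 (SE 0.37, adjusted p = 0.0606) and that from HEK-EV 0.81 (SE 0.37, adjusted p = 0.225). Ccl22 was at 9.95, 7.07 and 6.27 TPM in PBS, 8.55, 7.52 and 5.10 in HEK-EV and 20.1, 14.7 and 9.76 in MSC-EV. Its MSC-EV samples were above all HEK-EV samples, and the lowest of them was just below PBS replicate 1. The differences were 0.82 against PBS (SE 0.261, adjusted p = 0.0962) and 0.95 against HEK-EV (SE 0.261, adjusted p = 0.0635). Cx3cl1, or fractalkine, which lies between these genes on chromosome 8, was low, at 0.309 to 0.409 TPM in PBS, 0.232 to 0.364 in HEK-EV and 0.516 to 0.714 in MSC-EV, and was under the filter.

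Ccr7, the receptor that takes dendritic cells and T cells to lymph nodes, was at 2.91, 2.03 and 1.26 TPM in PBS, 2, 2.41 and 2.32 in HEK-EV and 6.73, 4.73 and 3 in MSC-EV. Every MSC-EV sample was above every other sample, the third of them by a small margin over PBS replicate 1. The differences did not pass, at 0.91 against PBS (SE 0.253, adjusted p = 0.0701) and 0.79 against HEK-EV (SE 0.253, adjusted p = 0.0957). Of 11 dendritic cell markers 10 reached the filter, and the whole list summed to 126 to 170 TPM in PBS, 113 to 154 in HEK-EV and 173 to 217 in MSC-EV, with Cd209a the most abundant. Against PBS, 7 of the 10 were higher and 3 lower, and 1 passed by limma, H2-DMb2 (0.59, adjusted p = 0.0424), where 1.86% of all genes were called higher. Xcr1, a marker of cross-presenting dendritic cells, was at 1.57, 1.26 and 1.57 TPM in PBS and 0.624, 1.61 and 1.65 in MSC-EV. T and NK cell markers, 6 of 13 past the filter, summed over the whole list to 36.1 to 47.0, 34.5 to 52.9 and 54.3 to 60.9 TPM. Against PBS all 6 of those tested were higher in MSC-EV, 4 without overlap (11.2% of all genes), and 1 passed by limma (1.86% of all genes). It was Nkg7, a gene of cytotoxic cells, at 4.26, 2.93 and 4.04 TPM against 1.54, 1.9 and 2.29 (0.70, SE 0.162, adjusted p = 0.0424). Cd3e, a chain of the T cell receptor complex, was at 0.536 TPM or less. The part of these cells in the Ccl17, Ccl22, Ccr7 and Ccl5 differences was not tested.

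The ligands of Cxcr3, Cxcl9 and Cxcl10, are induced by interferons and attract activated T and NK cells. Cxcl9 was at 11.8, 16.6 and 6.61 TPM in PBS, 19.1, 9.93 and 6.96 in HEK-EV and 115, 20.5 and 15.9 in MSC-EV. MSC-EV replicate 1 was 5.62 times as high as the highest of the other 8 samples, and without it the difference of MSC-EV from PBS went from 1.54 (SE 0.671, adjusted p = 0.207) to 0.67 (adjusted p = 0.473). Ccl5, or RANTES, which T and NK cells and macrophages make, had the same high sample: 15.8, 17.6 and 12.2 TPM in PBS, 10.8, 17.3 and 15.0 in HEK-EV and 84.5, 19.4 and 22.3 in MSC-EV. The MSC-EV samples lay above all others also without replicate 1, but the difference from PBS, 1.10 with it (SE 0.461, adjusted p = 0.191), was then 0.44 (adjusted p = 0.315). Over all 20 alternatives the adjusted p of MSC-EV against PBS was 0.0569 to 0.633 for Cxcl9 and 0.0384 to 0.56 for Ccl5.

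Cxcl10 did not share that pattern. It was at 62.8, 145 and 106 TPM in PBS, 94.5, 59.4 and 76.5 in HEK-EV and 130, 47.0 and 58.7 in MSC-EV, so that MSC-EV replicate 1 was high within its group but below PBS replicate 2. The difference of MSC-EV from PBS was -0.47 (SE 0.391, adjusted p = 0.528). Leaving out MSC-EV replicate 1 made it -0.90 (adjusted p = 0.216), and the alternatives gave adjusted p of 0.216 to 0.884. Cxcr3, their receptor, was at 4.19, 3.82 and 2.93 TPM in PBS, 3.59, 4.02 and 3.75 in HEK-EV and 5.25, 4.07 and 4.43 in MSC-EV, above HEK-EV without overlap (0.22, SE 0.131, adjusted p = 0.365).

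The monocyte attractants acting on Ccr2 gave no group difference that passed. Ccl2 was at 190, 256 and 369 TPM in PBS, 215, 236 and 329 in HEK-EV and 161, 260 and 181 in MSC-EV, with overlap throughout (MSC-EV against PBS -0.41, SE 0.26, adjusted p = 0.392). Ccl7 averaged 116 ± 41.1, 120 ± 45.6 and 98.6 ± 32.9 TPM and Ccl12 13.9 ± 5.95, 12.6 ± 3.82 and 7.70 ± 1.30 TPM in PBS, HEK-EV and MSC-EV. Ccr2 was at 718, 843 and 759 TPM in PBS, 1061, 794 and 670 in HEK-EV and 540, 727 and 621 in MSC-EV. Its differences were -0.30 for MSC-EV against PBS (SE 0.163, adjusted p = 0.307) and -0.40 against HEK-EV (SE 0.163, adjusted p = 0.175). The sum of Ly6C-high monocyte markers, 10 of 10 past the filter, was lower in every MSC-EV sample than in any other (3745 to 4587 against at least 6101 TPM), and its part in the Ccr2 values was not tested.

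None of the neutrophil attractants with a test passed in any comparison. Cxcl2 was at 579, 706 and 1043 TPM in PBS, 737, 738 and 988 in HEK-EV and 783, 580 and 865 in MSC-EV, with overlap of all groups. The interval of the difference of MSC-EV from PBS ran from -0.54 to 0.46. Cxcl1 averaged 17.3 ± 6.77, 12.1 ± 1.90 and 18.7 ± 6.27 TPM and Cxcl3 5.13 ± 2.13, 5.11 ± 1.25 and 4.28 ± 0.818 TPM in PBS, HEK-EV and MSC-EV. Cxcl5 was listed at 0 in all samples but PBS replicate 1, at 0.0814 TPM.

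Cxcr2, the neutrophil receptor for these ligands, was at 77.1, 93.6 and 124 TPM in PBS, 140, 117 and 154 in HEK-EV and 99.2, 76.8 and 82.1 in MSC-EV. All HEK-EV samples were above all MSC-EV samples, and PBS overlapped both. The difference of MSC-EV from HEK-EV, -0.67 (SE 0.17), was just short of the threshold (adjusted p = 0.0518; 0.024 to 0.157 over 20 alternatives, of which 6 passed), and that of HEK-EV from PBS was 0.50 (SE 0.17, adjusted p = 0.999). The difference of MSC-EV from HEK-EV passed when PBS replicate 1 or 3 was left out (adjusted p = 0.024 and 0.0328). Ccr1, carried by monocytes and neutrophils, was at 134, 168 and 231 TPM in PBS, 252, 226 and 259 in HEK-EV and 178, 183 and 172 in MSC-EV. Again HEK-EV lay above MSC-EV without overlap (-0.46, SE 0.161, adjusted p = 0.119). Neutrophil markers, 14 of 14 past the filter, summed to 3268 to 6118 TPM in PBS, 5386 to 7573 in HEK-EV and 3161 to 3962 in MSC-EV, a sum in which S100a9 and S100a8 are by far the most abundant. Against PBS, 11 of the 14 were lower in MSC-EV and 3 higher, and 1 passed in each direction by limma (3.25% of all genes lower and 1.86% higher): Cd177 at -0.77 (adjusted p = 0.031) and the granule protein gene Ltf at 0.87 (adjusted p = 0.0348). The 3 higher ones, Ltf, Ngp and Camp, were higher in every MSC-EV sample than in any PBS sample (11.2% of all genes), with Ngp at 21.3, 13.9 and 29.2 TPM against 7.17, 11.5 and 11.1. Against HEK-EV, 11 were also lower and 3 higher, of which 3 and 1 passed (4.4% and 1.51% of all genes). The part of neutrophils in the Cxcr2 and Ccr1 differences was not tested.

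The remaining ligands include membrane-bound and homeostatic ones, and the inflammatory Ccl8. Cxcl16, a membrane-bound ligand of Cxcr6, was at 72.5, 68.8 and 62.2 TPM in PBS, 68.9, 82.3 and 80.7 in HEK-EV and 92.3, 77.7 and 78.4 in MSC-EV, above PBS without overlap (0.28, SE 0.0954, adjusted p = 0.115). Cxcl12, the ligand of Cxcr4 that keeps leukocytes in the bone marrow, was low at 2.53, 1.67 and 1.55 TPM in PBS, 2.29, 1.72 and 2.82 in HEK-EV and 4.16, 2.70 and 2.70 in MSC-EV (0.52 against PBS, SE 0.194, adjusted p = 0.147). Its MSC-EV samples were above all PBS samples. Cxcl13, the attractant of B cells, was at 7.20, 2.50 and 4.29 TPM in PBS, 6.77, 6.58 and 9.96 in HEK-EV and 2.68, 3.59 and 3.91 in MSC-EV. MSC-EV lay below HEK-EV without overlap (-0.99, SE 0.282, adjusted p = 0.0716) and inside the range of PBS. Cxcl14 averaged 7.16 ± 0.576, 6.52 ± 0.972 and 7.69 ± 2.20 TPM and Ccl8 0.295 ± 0.278, 0.86 ± 0.277 and 1.31 ± 1.06 TPM in PBS, HEK-EV and MSC-EV.

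The other receptors were Cxcr4 and Cx3cr1 among the abundant ones, and Ackr3, Ccr9 and Cxcr6 among the low ones. Cxcr4 was at 342, 275 and 336 TPM in PBS, 231, 270 and 276 in HEK-EV and 278, 248 and 263 in MSC-EV, lower in both vesicle groups on average but with PBS replicate 2 among their values (MSC-EV against PBS -0.27, SE 0.0989, adjusted p = 0.145). Cx3cr1 was at 298, 296 and 225 TPM in PBS, 377, 341 and 260 in HEK-EV and 213, 299 and 287 in MSC-EV, with overlap throughout. Ackr3, a receptor that takes up Cxcl12 without starting cell movement, was at 0.765, 0.903 and 0.836 TPM in PBS, 0.505, 0.65 and 0.846 in HEK-EV and 0.445, 0.388 and 0.448 in MSC-EV, under the filter. Its MSC-EV samples were the lowest of the 9. Ccr9 did not exceed 0.30 TPM in any sample and Cxcr6 did not exceed 0.255.

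For HEK-EV against PBS, which asks what vesicles from the other cell source went with, limma called 0 of 22 ligands and 0 of 8 receptors, and 0% of all genes. None of the 20 alternatives called any of these ligands and receptors, while over all genes 4 were called with no filter, 1 without HEK-EV replicate 1, 2 without HEK-EV replicate 3 and 1 without MSC-EV replicate 1. At an unadjusted p under 0.05 there were 3 ligands (Ccl3, Ccl4 and Cxcl13) and 3 receptors (Ccr1, Cxcr2 and Cxcr4), where 3.58% of all genes were under it (2.32% higher and 1.27% lower). Groups did not overlap for 2 ligands, Ccl3 and Ccl4, and 0 receptors (7.81% of all genes), and both ligands were lower (2.29% of all genes, against 5.51% higher). The median log2 difference was -0.04 for ligands, 0.14 for receptors and 0.03 for all genes, with 7 of 8 receptors higher.

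For MSC-EV against HEK-EV, which compares the sources of the vesicles, 1 of 22 ligands (Pf4) and 0 of 8 receptors passed in limma, where 5.91% of all genes did. At an unadjusted p under 0.05 there were 7 ligands and 5 receptors (23.3% of all genes), with 8.23% of all genes higher and 15.1% lower. Groups did not overlap for 7 ligands and 4 receptors (30.1% of all genes): Pf4, Ccl5, Ccl22, Ccr7 and Cxcr3 were higher (12.6% of all genes) and Ccl9, Ccl12, Ccl24, Cxcl13, Ccr1 and Cxcr2 lower (17.5%). The 5 receptors under the unadjusted threshold were Ccr1, Ccr2, Ccr3 and Cxcr2, all lower in MSC-EV, and Ccr7, which was higher. The median log2 difference was -0.02 for ligands, -0.35 for receptors and -0.02 for all genes. The ligand count was 0 without any 1 of HEK-EV replicates 1 to 3 or MSC-EV replicates 1 and 2, 2 without PBS replicate 2 or MSC-EV replicate 3, and 4 without PBS replicate 1. The receptor count was 2 without PBS replicate 1 or 3 and 1 without MSC-EV replicate 3. Over all genes, 817 were called with all samples, and 1, 0, 31, 0 and 0 in the fits that gave 0 ligands, in the same order. Without PBS replicates 1, 2 and 3 the calls over all genes were 1369, 636 and 790, and without MSC-EV replicate 3 they were 621.

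**Figure D4:**
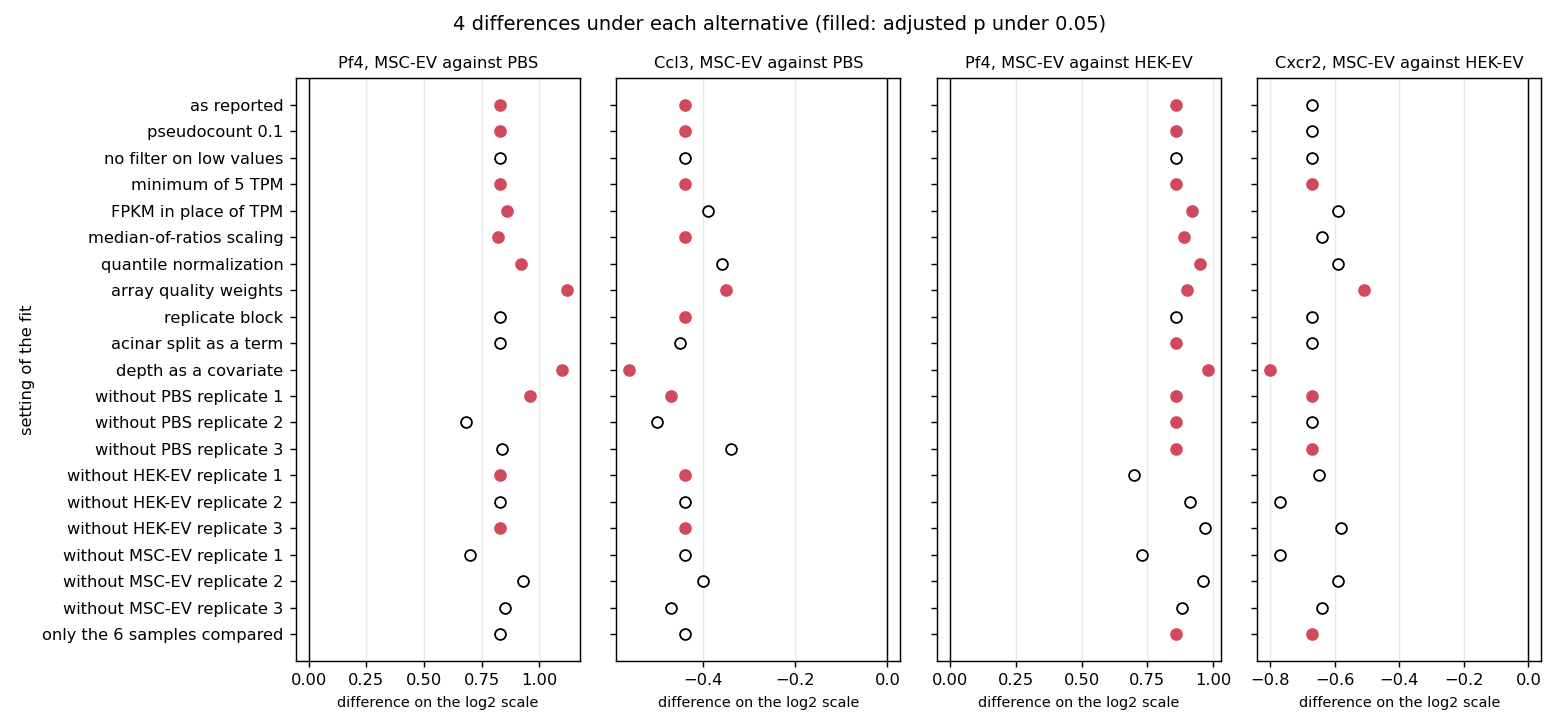
Difference on the log2 scale (horizontal axis, the line at 0 marking no difference) under each of the 20 alternatives and as reported, for Pf4 and Ccl3 in MSC-EV against PBS and for Pf4 and Cxcr2 in MSC-EV against HEK-EV; filled points have an adjusted p under 0.05. In these 4 panels all points stay on one side of 0, and 10, 9, 12 and 6 of 20 alternatives passed.

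Genes downstream of the receptors were counted from a list of 36, all of which passed the filter: G protein subunits, receptor kinases and arrestins that switch receptors off, RGS proteins that end G protein signals, and kinases and other regulators of movement. Against PBS, 10 were lower in MSC-EV at an adjusted p under 0.05 and 0 were higher (3.25% of all genes were called lower and 1.86% higher), with 32 of 36 below 0 and a median of -0.18. Those named are among the ones with the smallest p: Rgs2 (-0.66, SE 0.107, adjusted p = 0.0213 by limma), the Src-family kinase Fgr (-0.58), Ptk2b (-0.39), the receptor kinase Grk5 (-0.80), Rgs14 (-0.48), Lyn (-0.40) and Rgs19 (-0.27). Rgs2 fell from 381, 445 and 444 TPM in PBS to 241, 301 and 264 in MSC-EV, and Grk5 from 29.8 ± 5.03 to 16.7 ± 2.48. The count was 5 on FPKM and 7 with median-of-ratios scaling, and quantile normalization gave 7 lower and 1 higher. The balance over all genes moved with the scaling. On TPM 257 of 706 calls were higher, and on FPKM 350 of 555. With median-of-ratios scaling 288 of 610 were higher, and with quantile normalization 312 of 701. The number of the 36 called was 0 with the acinar split as a term and without PBS replicate 2, PBS replicate 3 or MSC-EV replicate 1, 1 without MSC-EV replicate 2 and 5 without HEK-EV replicate 2. Over all genes, in the same order, 21, 5, 7, 25, 59 and 297 were called.

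Against HEK-EV, 13 of the 36 were lower and 0 higher (4.4% and 1.51% of all genes), led by Fgr (162 ± 11.9 TPM in MSC-EV and 278 ± 16.5 in HEK-EV, -0.78, SE 0.101, adjusted p = 0.0205). Grk6, Ptk2b, the arrestin Arrb1, Lyn, Rgs14 and Grk5 were also lower, at -0.42, -0.38, -0.32, -0.46, -0.50 and -0.67. The count was 3, 5 and 7 on FPKM, with median-of-ratios scaling and with quantile normalization, 7 with the acinar split as a term or without MSC-EV replicate 3, and 0 without any 1 of HEK-EV replicates 1 to 3 or MSC-EV replicates 1 and 2. Over all genes, 209 of 817 calls were higher on TPM, and 273 of 459, 237 of 512 and 316 of 694 in the 3 other scalings. The calls were 550 with the acinar split, 621 without MSC-EV replicate 3, and 1, 0, 31, 0 and 0 in the fits that gave 0. HEK-EV against PBS gave 0 calls among the 36 by limma, with 2 at an unadjusted p under 0.05 (3.58% of all genes) and 0 in each of the 20 alternatives. Many of these kinases are carried by neutrophils and monocytes, whose marker sums are given above, and the part of cell numbers was not tested.

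Of the chemokine receptors outside the 36 genes, 12 were listed and 6 had a test. Ackr2, a scavenger that removes inflammatory CC chemokines, was lower in MSC-EV than in PBS (-0.68, SE 0.13, adjusted p = 0.0269) and than in HEK-EV (-0.61, SE 0.13, adjusted p = 0.0315). It was low throughout, at 1.74, 1.48 and 1.29 TPM in PBS, 1.14, 1.44 and 1.56 in HEK-EV and 0.586, 0.53 and 0.543 in MSC-EV. The call against PBS held in 9 of 19 alternatives (adjusted p 0.00166 to 0.135) and was lost without PBS replicate 2 or 3, HEK-EV replicate 2 or any MSC-EV sample. The replicate block, the acinar split, depth as a covariate and the fit of only the 6 samples compared also ended it. The call against HEK-EV held in 12 of 19 alternatives, and was lost without any sample of the groups compared and with the replicate block. Cxcr1, a neutrophil receptor, was lower in MSC-EV than in HEK-EV (-0.55, SE 0.134, adjusted p = 0.0458; 0.0378 to 0.142 over 19 alternatives, of which 3 passed). Its mean was 1.27 ± 0.274 TPM in MSC-EV and 2.30 ± 0.304 in HEK-EV. Of the 9 fits without 1 sample it passed in that without PBS replicate 1 and in no other, and it did not pass with the replicate block. Of 13 other ligands listed 3 had a test, and 0 passed in limma in any comparison, with 0 to 1 called over the alternatives. For MSC-EV against PBS, 1 was at an unadjusted p under 0.05 (23% of all genes). Of 16 genes that cleave or present chemokines, among them Dpp4, Mmp9 and the syndecans, 14 had a test and 0 passed in limma. At an unadjusted p under 0.05 there were 6 for MSC-EV against PBS, 1 for HEK-EV against PBS and 8 for MSC-EV against HEK-EV. The shares of all genes were 23%, 3.58% and 23.3%. The alternatives called 0 to 7, 0 and 0 to 4 of the list, and 5 to 4163, 0 to 4 and 0 to 2081 of all genes.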

How the data were processed

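Polyadenylated RNA of CD11b+ liver cells was sequenced in 9 samples of 3 groups; the labels' protocols name TruSeq Stranded mRNA as the library kit. The submitters' processing notes name HISAT2 2.1.0, StringTie and the mm10 build, with no role stated. The use of strand in counting is not given in the sources used here. Per the file headers, the deposited tables hold TPM, FPKM and coverage per gene, computed by the authors. Of 45777 gene IDs, 45679 (99.79%) had a symbol in the RefSeq table of GRCm38.p6. Among the IDs with a single row in the deposited tables and a RefSeq position, 96.4% had the same coordinates.

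Genes at 1 TPM or more in at least 3 samples (13820) were tested on log2(TPM + 1) with limma 3.58.1 (R 4.3.3), all 9 samples in 1 fit with an intensity trend, and Benjamini-Hochberg adjustment over all genes tested at a threshold of 0.05. An exact permutation of 3 against 3 samples cannot go below p = 0.1, so none was used. The alternatives, 20 per comparison, were FPKM in place of TPM, a pseudocount of 0.1, a filter at 5 TPM, all genes without a filter, median-of-ratios scaling, quantile normalization, array quality weights, the replicate number as a block, the acinar split (a median of acinar genes above 0.3 TPM) as a term, the ratio of coverage to FPKM as a covariate, each sample left out, and only the 6 samples compared. The fit was tested on simulated data, and no value from that test is given here.

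Members described in full passed the adjusted threshold in a comparison, or had an unadjusted p under 0.05 with a group mean of at least 1 TPM and no overlap between groups; the others are given by level, with single values for the most abundant and for Cxcl9, Cxcl10, Cxcr3 and Ackr3, which fall outside this rule. Up to 8 called genes per pathway list were named, by smallest p, although some are not reported here, and 1 or 2 abundant markers per cell type. Epx, Prg2, Prg3, Cd3e, Nkg7, Gp9, Itgb3, Treml1, Itga2b, Tubb1, Gp1bb, Nrgn, Ltf, Ngp, Camp, Cd177, H2-DMb2, Xcr1, Dpp4 and Mmp9 also fall outside it and were named after their values were seen. The marker lists were for neutrophils, Ly6C-high monocytes, Kupffer cells, dendritic cells, T and NK cells, B cells, eosinophils with basophils and mast cells, platelets, sinusoidal endothelium, stellate cells, biliary cells, hepatocytes and pancreatic acinar cells. The members and lists were chosen with earlier results of these data known. Promoters were read with Python 3.11.15, pandas 2.3.3 and numpy 2.4.6, and plots drawn with matplotlib 3.10.9.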

Additional observations from a re-analysis of the deposited data

How the results depend on the processing

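Replicate numbers did not pair the samples: correlations of deviations between samples of the same number were -0.499 to 0.058. With the replicate number as a block, 4 ligands were called for MSC-EV against PBS and 2 against HEK-EV, the other 4 counts did not change, and Pf4 was no longer called (adjusted p = 0.0584 and 0.0508). For MSC-EV against PBS, ligands called (2) were 0 with no filter on low values and with the acinar split, 1 with quantile normalization and with only the 6 samples compared, 11 with array quality weights, 5 with depth as a covariate and 0 to 6 with 1 sample left out, while receptors called (0) were 3, 1 and 0 to 1 with weights, depth and 1 sample left out. For MSC-EV against HEK-EV, ligands called (1) were 5 with weights, 3 with depth, 3 with only the 6 samples compared and 0 to 4 with 1 sample left out, and receptors called (0) were 1 with a minimum of 5 TPM, 4 with weights, 3 with depth, 2 with the 6 samples and 0 to 2 with 1 sample left out. Against PBS, the 10 signalling genes called were 4 with no filter, 6 with the block, 1 with the 6 samples and 22 with weights. Against HEK-EV, the 13 were 6 with no filter, 6 with the block and 20 with weights. Over all genes, the 706 calls for MSC-EV against PBS became 361 with no filter, 404 with the block, 21 with the acinar split and 77 with the 6 samples. They became 4163 with weights, 1340 with depth and 5 to 1861 with 1 sample left out. For MSC-EV against HEK-EV, the 817 became 387 with no filter, 448 with the block, 844 with a minimum of 5 TPM and 1098 with the 6 samples. They became 2081 with weights, 1446 with depth and 0 to 1369 with 1 sample left out. The cause of these shifts was not tested. Depth as a covariate moved the median of all genes to 0.10 for MSC-EV against PBS. For HEK-EV against PBS, 0 ligands and 0 receptors were called under each of the 20 alternatives. Depth in reads is unknown, so precision at low TPM could not be computed.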

Other observations

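Some genes known to be induced by interferon gamma, chosen after their values were seen, were also high in MSC-EV replicate 1. It is the sample with high Cxcl9 and Ccl5. Ifng, the gene of interferon gamma itself, was under 1 TPM in every sample, at 0.922 there and at most 0.321 in the other 8. Nos2, inducible nitric oxide synthase, was at 11.4 against at most 0.624, the guanylate-binding proteins Gbp2 and Gbp5 at 196 and 57.8 against at most 97.3 and 28.3, and Cxcl11, the third ligand of Cxcr3, at 2.71 against at most 0.693. Mx1 and Ifit3, induced by type I interferon, were at 110 and 195 TPM, inside the range of the others (98.5 to 231 and 123 to 463). Any link of either interferon to the Cxcl9 and Ccl5 values was not tested.

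Among the 22 ligands with a test, PBS replicate 3 had the highest value of the 9 samples for 9 and MSC-EV replicate 1 for 7. They had the lowest value for 3 and 4. No such count was made over all genes, so these counts are not a result about the ligands.

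The other marker lists gave these sums, each over the whole list. Hepatocyte genes (14 of 14 past the filter) summed to 462 to 551 TPM in PBS, 375 to 592 in HEK-EV and 772 to 899 in MSC-EV. Biliary genes (10 of 12, mostly Spp1) summed to 750 to 1720, 910 to 1199 and 1798 to 2390 TPM, and sinusoidal endothelial genes (9 of 9) to 687 to 762, 606 to 805 and 378 to 536 TPM. Stellate genes (7 of 11) summed to 39.3 to 51.3, 40.5 to 50.4 and 39.4 to 61.5 TPM, B cell genes (2 of 6) to 13.8 to 23.4, 16.1 to 26.6 and 19.5 to 27.8, and eosinophil, basophil and mast cell genes (2 of 9) to 8.56 to 11.1, 9.59 to 14.5 and 11.2 to 13.9.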
